A study of Mus musculus with 78 samples.

Results

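The cell cycle genes of the mouse liver expression panel were examined in male B6C3F1 mice given dichloroacetic acid (DCA). Members were taken by a rule on gene names that uses no measured value, written with earlier results of these data known: cyclins A, B, D and E, numbered CDC genes, numbered cyclin-dependent kinases (CDKs), CDK inhibitors (CDKN), MCM2 to MCM7, Aurora and BUB kinases, E2F factors and kinesins (KIF), together with Plk1, Plk4, Top2a, Mki67, Pcna, Birc5, Rrm1 and Rrm2. Relatives of Cdc42 and Cdk5 were skipped. This gave 58 of the 2755 genes on the panel, and 43 of the 58 were among the 2205 genes that passed the deposited filter on low values and could be tested. The other 15 (Aurka, Aurkb, Bub1b, Ccna1, Ccne2, Cdc25c, Cdc6, Cdkn2a, Cdkn2b, Cdkn3, Kif11, Kif22, Kif2c, Kif4 and Pcna) did not pass it.

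Mice began at 4 weeks of age and drank either deionized water (Control) or water with DCA, a by-product of water disinfection, at 3.5 g/L. Stop groups received DCA for 10 weeks (S1), 32 weeks (S2) or 57 weeks (S3) and then deionized water until livers were collected, and the Direct group received it throughout. The number after the group name is the collection week, so the groups still on DCA at collection were Direct-78, S3-57, S2-32 and S1-10, whereas S1-32, S1-57, S1-78, S2-78 and S3-78 had been off DCA for 22, 47, 68, 46 and 21 weeks. All 13 groups shared the strain, the sex and the archived formalin-fixed, paraffin-embedded liver sections that were lysed whole, so no cell type was selected, and the labels do not say whether a section held a tumour. Of 78 libraries, 6 per group, 68 remained after the authors' quality control: 4 in Control-10, S2-78 and S3-78, 5 in S3-57, 3 in Direct-78 and 6 in each of the other groups.

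A cell enters the division cycle when D-type cyclins pair with Cdk4 or Cdk6 and release E2F factors from the retinoblastoma protein. E2F then switches on genes for DNA synthesis, among them the MCM subunits of the replicative helicase and ribonucleotide reductase, and cyclin A. Cyclin B with Cdk1 later drives mitosis, which kinesins, Aurora and Polo-like kinases carry out and which Cdc20 ends by activating the anaphase-promoting complex. Most hepatocytes of an adult liver rest outside this cycle, so few cells of a whole liver lysate carry many of these transcripts, and in such bulk samples a smaller number of cycling cells and less RNA per cell cannot be told apart.

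The promoter letters just upstream of the genes that lead the results below are shown to place the known control elements of this pathway. In the set of RefSeq promoters on GRCm38.p6 that was searched, 48 of the 58 members were matched, with 53 start sites. The 250 bases before the start site were searched on both strands for an E2F element (TTTCCCGC, TTTGGCGC, TTTCGCGC or TTTGCCGC), the cell cycle homology region or CHR (TTTGAA or TTCGAA) and the CCAAT box (CCAAT), none of which contains another. An E2F word lay in 9 of the 53 member promoters (17%) and in 1.86% of all 32851 promoters, a CHR word in 18 (34%) and in 17.1%, and CCAAT in 38 (71.7%) and in 33.8%. These are matches of letters and not measured binding. Capitals mark the matches on either strand in Cdc20 (chr4:118437344-118437593, minus strand), Cdc45 (chr16:18811973-18812222, minus strand), Mcm6 (chr1:128359706-128359955, minus strand) and Rrm1 (chr7:102441445-102441694, plus strand), each printed along its gene's strand up to the base before the start site.
Cdc20: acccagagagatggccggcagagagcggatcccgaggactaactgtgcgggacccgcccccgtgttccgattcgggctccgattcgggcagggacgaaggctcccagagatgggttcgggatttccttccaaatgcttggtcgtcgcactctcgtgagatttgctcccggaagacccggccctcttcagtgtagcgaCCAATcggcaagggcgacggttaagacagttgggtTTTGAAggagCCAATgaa
Cdc45: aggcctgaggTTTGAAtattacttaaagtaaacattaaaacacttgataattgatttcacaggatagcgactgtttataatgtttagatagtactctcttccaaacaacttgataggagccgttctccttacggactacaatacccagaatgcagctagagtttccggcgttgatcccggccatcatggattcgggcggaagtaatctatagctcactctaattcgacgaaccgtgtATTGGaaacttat
Mcm6: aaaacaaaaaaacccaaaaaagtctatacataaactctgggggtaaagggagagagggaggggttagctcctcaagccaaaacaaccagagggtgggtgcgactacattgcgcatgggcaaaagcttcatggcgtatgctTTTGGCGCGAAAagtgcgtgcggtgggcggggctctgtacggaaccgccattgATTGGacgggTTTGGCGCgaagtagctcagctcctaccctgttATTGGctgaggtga
Rrm1: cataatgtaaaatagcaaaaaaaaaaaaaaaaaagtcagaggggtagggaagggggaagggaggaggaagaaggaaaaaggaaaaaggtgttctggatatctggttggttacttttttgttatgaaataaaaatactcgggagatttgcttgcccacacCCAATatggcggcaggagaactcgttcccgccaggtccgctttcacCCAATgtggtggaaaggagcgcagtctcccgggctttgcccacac
Cdc20 held a CHR word 18 bases and CCAAT 53 and 8 bases before its start site. Mcm6 held 3 E2F words, 110, 106 and 47 bases before the start, of which those at 110 and 106 overlap on opposite strands, and Rrm1 held CCAAT only, 91 and 45 bases before it.

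The libraries held 541245 to 4285848 counts, of which members took 0.0836% to 0.537% (median 0.152%). RNA was read by TempO-Seq, in which pairs of detector oligonucleotides are ligated on their target transcript and the ligation products are sequenced and counted. Levels are given as CPM, the counts relative to the library total after TMM scaling, and they may be compared between livers but not between genes, since each gene was read through its own probe pair and no length applies. Of the 58 members, Cdk4 (median 310 CPM over the 68 libraries), Cdkn1b (210 CPM), Cdk7 (154 CPM) and Cdk6 (93.2 CPM) were read deeply, whereas Mki67, the proliferation marker of histology, had a median of 3 counts and was at 0 in 19 libraries, and Pcna, the DNA polymerase clamp, had a median of 1 count and was at 0 in 32. Depth differed with group in places. The S1-32 libraries (2979117 to 3914572 counts) were all deeper than those of Control-32 (721372 to 2731045), and the Direct-78 libraries (541245 to 699825) were all shallower than those of Control-78 (2098777 to 4285848). The S3-57 libraries (1123317 to 2030701) were all shallower than those of Control-57 (2223516 to 4153377), the S3-78 libraries (1154431 to 1936370) than those of Control-78, and the Direct-78 libraries than those of S3-78. The Control-57 libraries were all deeper than those of Control-10 (1233543 to 2206672). In these 6 comparisons depth and group cannot be told apart. The 5 hepatocyte markers on the panel (Apoa1, Ttr, Hnf4a, Fgb and Cps1) were present in every group, with summed levels of 8156 to 76834 CPM. Control-32 mouse 75 and Direct-78 mouse 66 correlated least with the mean profile (squared Spearman correlation of 0.627 and 0.641), and 4 livers, of S1-10, S1-32, S1-78 and S2-78, carried pancreas transcripts at 2199 to 19167 CPM. Calls of members that were lost without these livers are named beside the results. Calls of single genes outside the membership are given from the fit of all 68 libraries only.

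A member was called where edgeR's quasi-likelihood test gave a Benjamini-Hochberg adjusted p of 0.05 or less over all 2205 genes and the fold change was beyond 1.5. Of the 43 tested members, 18 (41.9%) were called in at least 1 of the 9 comparisons of DCA with age-matched water controls, against 57.1% of all tested genes. Rrm1 was called in 4 of the 9, Ccnd1 and Cdkn1b in 3 each, and Cdc45, Mcm6 and Kif14 in 2 each. Comparisons at the same week share their control livers, so repeated calls among them are not independent. Mki67, Mcm2, Top2a and Cdkn1a were called in none of them. At 10 and 32 weeks the calls in S1 were mostly decreases, and at 78 weeks the calls were increases but for Cdk6.

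**Figure D1:**
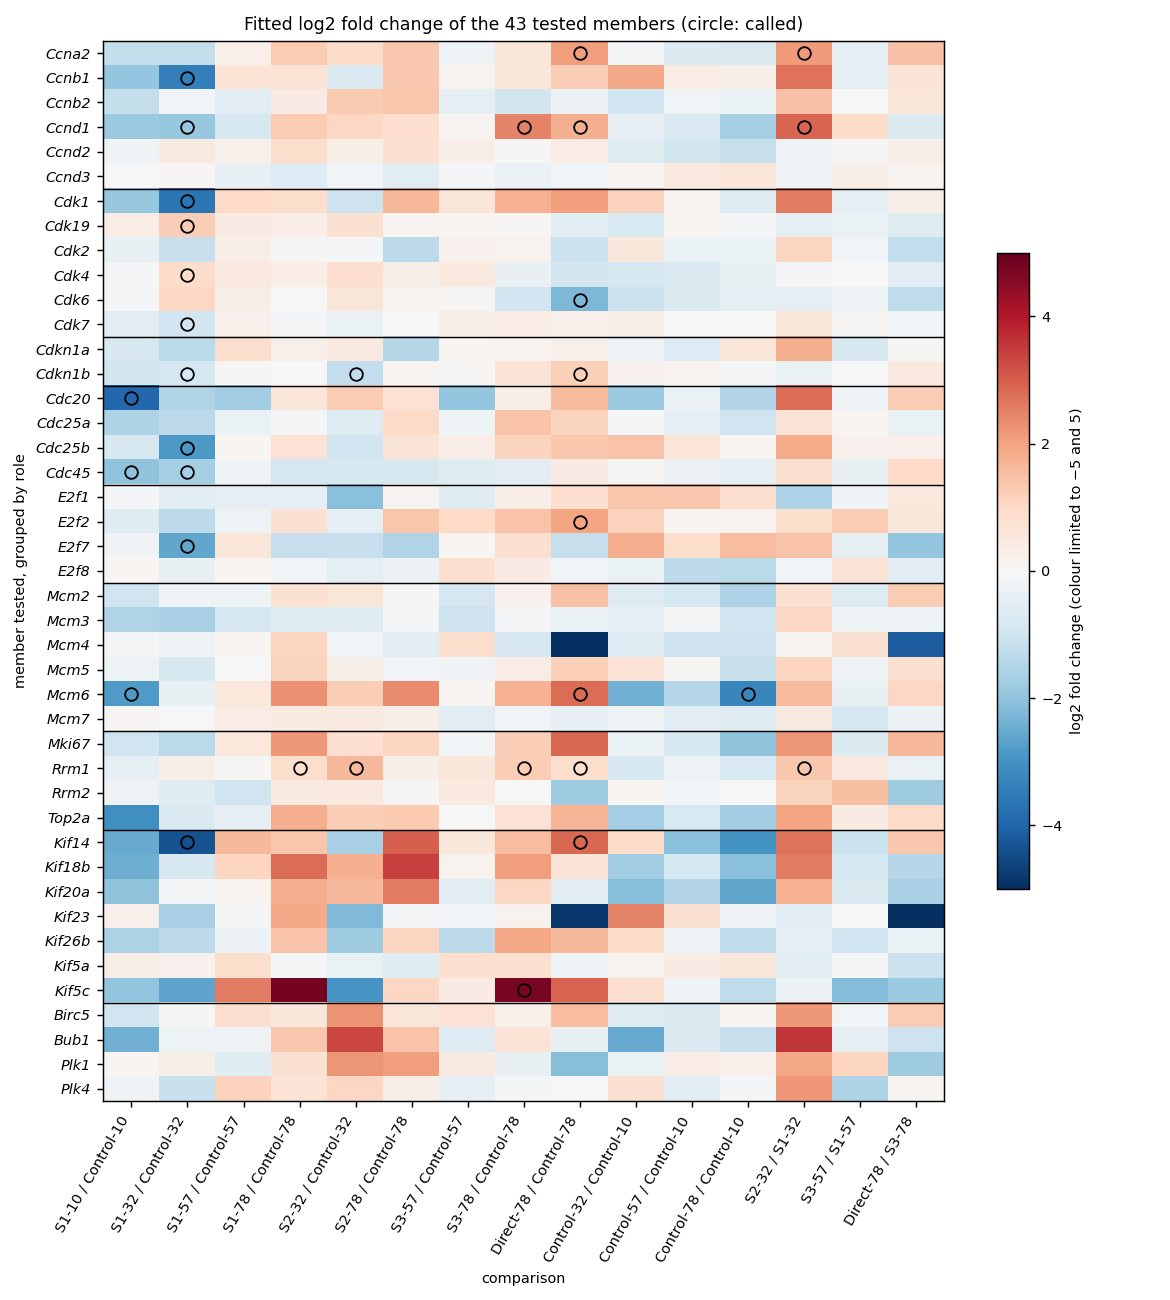
Fitted log2 fold change (colour, limited to −5 and 5) of the 43 tested members in rows grouped by role, in 15 comparisons in columns, with a circle where a member was called. Circles fall on decreases in the S1-10 and most of the S1-32 column and on increases in the columns of DCA groups against Control-78, except Cdk6 in Direct-78. The darkest cells of Mcm4 and Kif23 belong to Direct-78, where all 3 libraries had 0 counts and no fold can be given.

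The comparison of S1-10 with Control-10 asks what 10 weeks of DCA did while exposure lasted. Cdc20, Cdc45 and Mcm6 fell, no member rose, and 37 of 43 members were fitted lower, with a median log2 fold change of −0.82 against −0.03 over all genes. Calls were made for 5.49% of all tested genes and 4.40% were called lower, against 3 of 43 members (6.98%), so the share called is near the background. Cdc20, the activator of the anaphase-promoting complex, stood at 210, 11.6, 19.5 and 21.1 CPM in Control-10 and at 0.604 to 7.37 CPM (median 3.99) in S1-10. Every treated liver lay below every control liver, and the control of 210 CPM was mouse 68. The log2 fold change was −3.93 ± 1.03 (SE, adjusted p = 0.0191), and without mouse 68 it was −2.02 and the call was lost (adjusted p = 0.536). With the total count as a covariate it was −3.43 and missed the threshold.

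Cdc45, which loads with the MCM ring to form the active helicase, was at 23.6, 26.3, 24.1 and 40.1 CPM in Control-10 and 6.09 to 8.46 CPM (median 6.93) in S1-10. The groups did not overlap, and the control at 40.1 CPM lay above the others, at 23.6 to 26.3 CPM. It fell by 2.01 ± 0.55 (SE) on the log2 scale (adjusted p = 0.0240), a value that stayed between −2.09 and −1.80 when each liver was left out, although the call was lost without mouse 68 or mouse 72 (adjusted p up to 0.103). Mcm6, a subunit of the helicase ring, was at 97.9, 6.03, 24.1 and 2.15 CPM in Control-10 and 3.02 to 6.45 CPM in S1-10, so the groups overlapped. Its log2 fold change of −2.85 ± 0.80 (adjusted p = 0.0255) became −1.25 without mouse 68, and the call was lost, as it was without mouse 18 of S1-10, with all 78 libraries, with only the compared groups and with the total count as a covariate.

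Ccnd1, cyclin D1, the growth-factor sensor of the cycle, was at 77.3, 57.3, 55.7 and 86.6 CPM in Control-10 and at 11.5 to 29.7 CPM (median 18.3) in S1-10. No treated liver reached the lowest control, yet the adjusted p of 0.0569 missed the threshold (log2 fold change −1.85 ± 0.60). Top2a, the topoisomerase of late replication and mitosis, also did not overlap, at 68.4, 5.17, 8.04 and 5.60 CPM against 0 to 5.15 CPM, with adjusted p = 0.109. Groups failed to overlap in the lower direction for 4 of 43 members, against 5.80% of all tested genes, and in the higher direction for none, against 9.07%. Mouse 68 was the highest control for 24 of 43 members (55.8%) and for 37.5% of all tested genes. Its summed hepatocyte markers were the lowest of all libraries, 8156 CPM, where the median of Control-10 was 39117 CPM and the S1-10 livers had 41490 to 56599 CPM. Stellate cell and fibroblast markers had a median of 399 CPM in Control-10 (196 to 451) and 161 CPM in S1-10 (112 to 198), where only mouse 68 reached the treated range. The part of these markers in the differences was not tested.

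**Figure D2:**
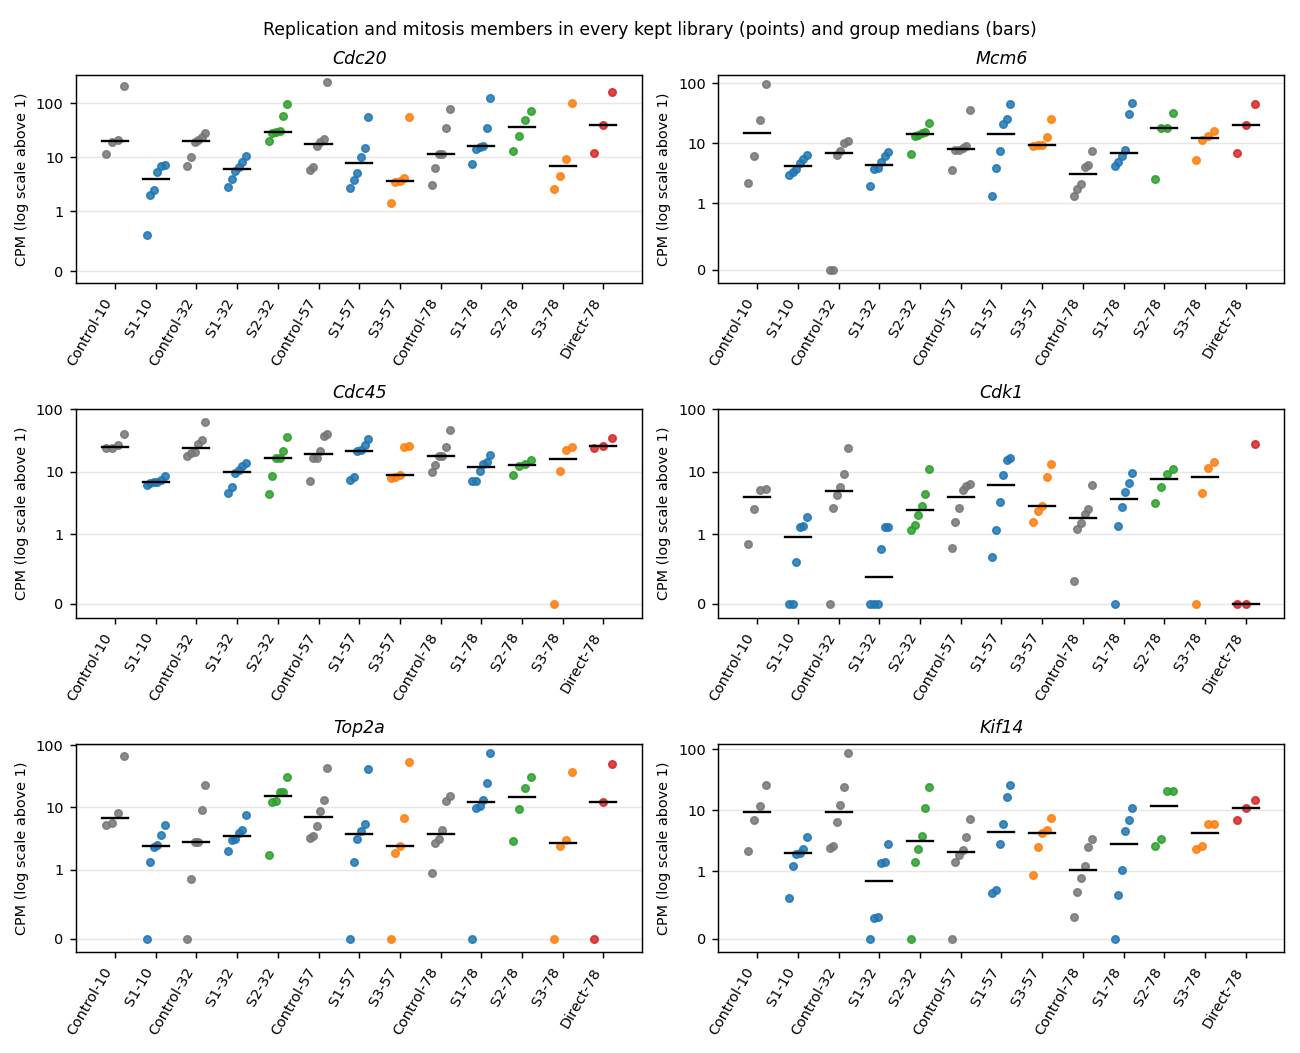
Level in CPM (log scale above 1, linear below) of Cdc20, Mcm6, Cdc45, Cdk1, Top2a and Kif14 in each liver (points) by group, with the group median as a bar (grey Control, blue S1, green S2, orange S3, red Direct). Cdc45 is compact in S1-10, from 6.09 to 8.46 CPM and below all 4 Control-10 livers, whereas Cdc20 and Top2a show single high livers in most groups, such as 210 CPM for Cdc20 in Control-10.

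S1-32 livers had been off DCA for 22 weeks, and the comparison with Control-32 asks what remained. Of 43 members, 9 fell and 2 rose (25.6% called), and 29.1% of all tested genes were called, 17.2% lower and 11.9% higher. The members' median log2 fold change was −0.81 against 0.05 over all genes. Summed macrophage markers (6 of 12 listed on the panel) were higher in every S1-32 liver (1294 to 1684 CPM) than in every Control-32 liver (485 to 1193 CPM), and their part in these differences was not tested. By role, the lower calls held 2 cyclins (Ccnb1 and Ccnd1), 2 CDKs (Cdk1 and Cdk7), 2 CDC genes (Cdc25b and Cdc45), the inhibitor Cdkn1b, the factor E2f7 and the kinesin Kif14. None of the 6 MCM subunits was called.

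Ccnb1, cyclin B1, lay at 0.312 to 6.57 CPM (median 2.28) in S1-32 and at 0.865 to 100.3 CPM (median 20.1) in Control-32, with a log2 fold change of −3.43 ± 0.98 (SE, adjusted p = 0.00791). Cdk1, its kinase partner, lay at 0 to 1.32 CPM (median 0.393), where 3 of the 6 livers had no count, against 0 to 23.7 CPM (median 4.97), with −3.63 ± 1.04 (adjusted p = 0.00836). Kif14, a kinesin of cytokinesis, lay at 0 to 2.75 CPM against 2.40 to 86.99 CPM, with −4.35 ± 1.02 (adjusted p = 0.00191). The S1-32 livers had 1 to 19 counts of Ccnb1, 0 to 4 of Cdk1 and 0 to 7 of Kif14, and their ranges overlapped those of the controls for each of these genes. The phosphatase Cdc25b, which activates Cdk1, fell by 2.87 ± 0.80 on the log2 scale (adjusted p = 0.00694), from a median of 11.7 CPM (0 to 56.9) to 2.92 CPM (0.691 to 3.54). E2f7, an E2F factor that represses rather than activates, fell by 2.58 ± 1.02 (adjusted p = 0.0489), from a median of 6.42 CPM to 1.08 CPM. Without Control-32 mouse 75 the calls of Ccnb1, Cdc25b and E2f7 were lost, and that of E2f7 was lost in 8 of the 12 fits that left out a liver.

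Ccnd1 was at 8.60 to 21.2 CPM (median 13.1) in S1-32 and 18.7 to 81.3 CPM (median 51.6) in Control-32, and a single control, mouse 77 at 18.7 CPM, reached into the treated range. The log2 fold change was −1.89 ± 0.56 (adjusted p = 0.0105), and the call held without each liver in turn. Cdc45 was again lower in every treated liver, 4.49 to 13.8 CPM against 17.8 to 61.9 CPM, with −1.65 ± 0.51 (adjusted p = 0.0129). Cdk7, the kinase that activates other CDKs and phosphorylates RNA polymerase II, was lower in every liver too, 80.05 to 121 CPM against 143 to 311 CPM (−0.96 ± 0.25, adjusted p = 0.00423). The groups failed to overlap in the lower direction only for these 2 of 43 members, against 3.99% of all tested genes. Cdkn1b, the inhibitor p27 that holds cyclin E and Cdk2 in check, lay at 166 to 209 CPM against 176 to 555 CPM (−0.90 ± 0.33, adjusted p = 0.0331), and the call was lost without mouse 22, 24, 75 or 78.

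The calls that rose were Cdk4, the kinase partner of cyclin D, and Cdk19, a kinase of the transcriptional Mediator complex. Cdk4 lay at 311 to 388 CPM in S1-32 and at 92.1 to 364 CPM in Control-32, with a log2 fold change of 0.93 ± 0.33 (adjusted p = 0.0283). Controls of 92.1, 99.1 and 107 CPM (mice 75, 76 and 78) stood far below the control of 364 CPM, and the call was lost without any of these 3. Cdk19 lay at 65.4 to 125 CPM against 14.04 to 74.96 CPM (1.25 ± 0.34, adjusted p = 0.00557). Without the 2 poorly correlated livers, 6 of the 11 calls remained, Ccnd1, Cdc45, Cdk1, Cdk19, Cdk7 and Kif14. With the total count of each library as a covariate none of the 11 was called.

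S2-32 livers were taken at the end of 32 weeks of DCA. Rrm1 rose and Cdkn1b fell, 2 of 43 members (4.65%), where 10.7% of all tested genes were called, 3.45% higher and 7.21% lower. Rrm1, the large subunit of ribonucleotide reductase, which makes the deoxynucleotides for DNA synthesis, lay at 74.2 to 168 CPM (median 98.1) in S2-32 and at 25.7 to 58.8 CPM (median 34.4) in Control-32. All 6 treated livers were above all 6 controls, by 1.61 ± 0.25 on the log2 scale (3.06-fold, adjusted p = 6.77e-05). The call held in all 8 alternative settings and without each liver in turn, between 1.40 and 1.79. Rrm2, the small subunit, was not called in this or any other comparison. Cdkn1b lay at 117 to 184 CPM (median 134) against 176 to 555 CPM (median 319), a log2 fold change of −1.23 ± 0.33 (adjusted p = 0.0115), and that call held in every setting too. Only 1 control liver, mouse 74 at 176 CPM, lay inside the treated range. E2f1, the activator of S-phase genes, was lower in every S2-32 liver (0 to 8.79 CPM against 10.8 to 32.4 CPM), with adjusted p = 0.0648. Summed stellate cell and fibroblast markers (6 of 10 listed on the panel) were higher in every S2-32 liver (369.7 to 966 CPM) than in every Control-32 liver (89.8 to 278 CPM), and their part was not tested.

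S1-32 and S2-32 share their Control-32 livers, and the direct comparison between them asks how livers still on DCA differ from age-matched livers 22 weeks off it. Rrm1, Ccna2 and Ccnd1 were higher in S2-32 (3 of 43, 6.98%, against 3.54% of all tested genes called and 2.13% called higher, 1.41% lower). Ccnd1 lay at 39.3 to 188 CPM (median 95.2) in S2-32 and at 8.60 to 21.2 CPM in S1-32, a log2 difference of 2.92 ± 0.58 (7.57-fold, adjusted p = 0.00125). Ccna2, cyclin A2 of S phase and G2, lay at 37.4 to 67.1 CPM (median 55.4) against 10.6 to 14.0 CPM (median 12.3), a difference of 2.13 ± 0.52 (4.38-fold, adjusted p = 0.0137). Rrm1 lay at 74.2 to 168 CPM against 34.4 to 57.3 CPM (1.33 ± 0.25, adjusted p = 0.00111). None of these 3 ranges touched, and each call held when any liver was left out. With all 78 libraries only Ccnd1 remained called, and with the total count as a covariate Ccna2 was lost.

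In that comparison every S2-32 liver was above every S1-32 liver for 11 of the 43 members, against 4.44% of all tested genes, and no member lay the other way, against 7.17%. Besides the 3 called genes these were Birc5, the inhibitor of apoptosis survivin that also acts at the centromere, Ccnb1, Cdc20, Cdc25b, Kif18b, Kif20a, Mki67 and Plk4. Cdc20 lay at 19.8 to 96.6 CPM in S2-32 and 2.87 to 10.7 CPM in S1-32 (2.78 ± 0.93, adjusted p = 0.0785). Ccnb1 lay at 8.20 to 38.1 CPM against 0.312 to 6.57 CPM (2.72 ± 0.95, adjusted p = 0.0963). Mki67 lay at 1.70 to 14.4 CPM against 0 to 1.65 CPM (2.19 ± 1.13, adjusted p = 0.302). Its median over all libraries was 3 counts, so its lack of overlap rests on few counts. In all, 31 of 43 members were fitted higher, with a median difference of 1.09 against 0.01 over all genes. Fitted directions are counted by role below, and a difference between roles was not tested. All 6 MCM subunits, all 4 CDC genes, all 4 of the mitotic kinases, Bub1 and Birc5, and all 4 of the replication factors and Mki67 were fitted higher. Of the cyclins 4 were fitted higher and 2 lower, of the CDKs 3 and 3, of the E2F factors 2 and 2, of the CDK inhibitors 1 and 1, and of the kinesins 3 and 4, with a median of −0.31. Other cell type markers moved with the groups as well, since every S2-32 liver was below every S1-32 liver for summed macrophage (592 to 1070 against 1294 to 1684 CPM), lymphocyte (20.4 to 33.5 against 37.3 to 89.7 CPM) and endothelial markers (173 to 278 against 329 to 432 CPM). Stellate cell and fibroblast markers had medians of 553 and 224 CPM. The part of these markers in the differences was not tested. With only these 2 groups fitted, 15 members and 20.2% of all tested genes were called, and with DESeq2 7 members and 6.67% of genes.

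**Figure D3:**
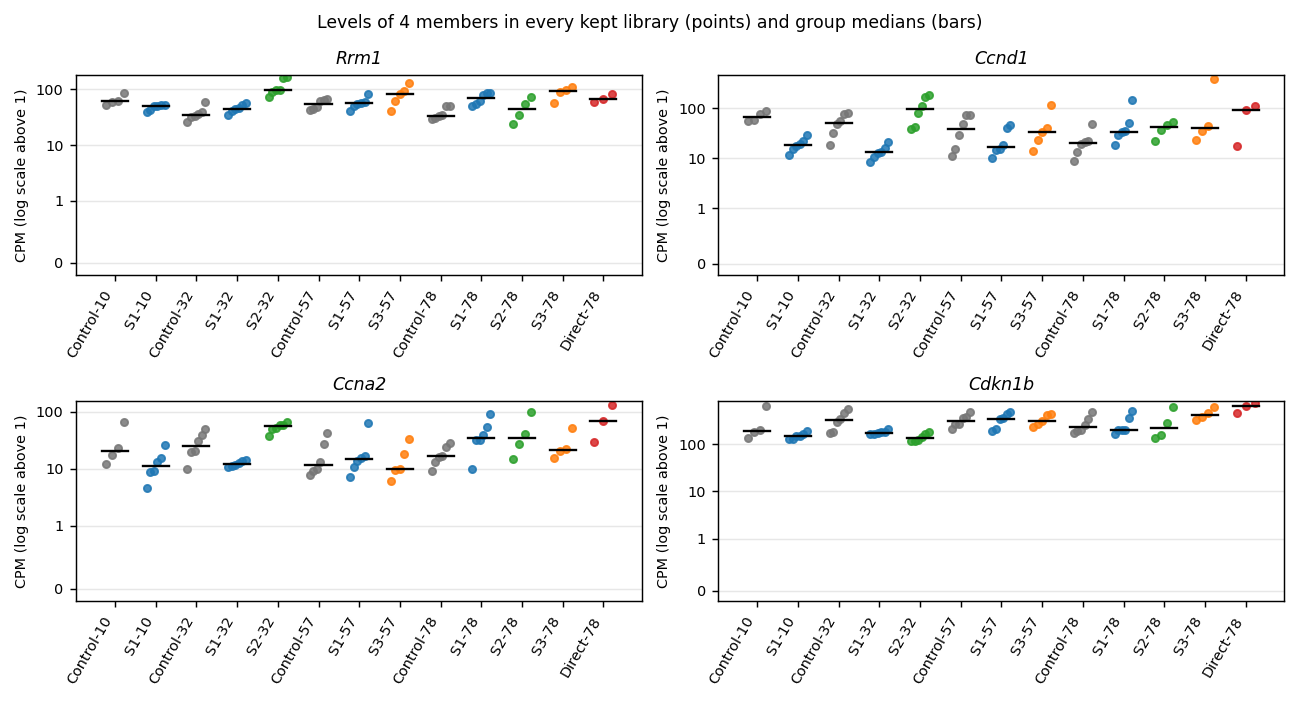
Level in CPM (log scale above 1) of Rrm1, Ccnd1, Ccna2 and Cdkn1b in each liver (points) by group, with the group median as a bar (grey Control, blue S1, green S2, orange S3, red Direct). Rrm1 is above its age-matched controls in all livers of S2-32 (74.2 to 168 CPM), S3-78 and Direct-78, and Ccnd1 stays between 8.60 and 21.2 CPM in the 6 livers of S1-32.

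At 57 weeks no member was called in either group. In S1-57, 47 weeks off DCA, edgeR and DESeq2 each called 0 of 43 members. By edgeR 1.59% of all tested genes were called (0.363% higher and 1.22% lower). An unadjusted p under 0.05 was found for 0 members and for 293 of all 2205 tested genes. By DESeq2 4.67% of all tested genes were called, and 59.2% of those were higher. In S3-57, on DCA for 57 weeks, edgeR and DESeq2 each called 0 of 43 members. By edgeR 6.39% of all tested genes were called (2.86% higher and 3.54% lower). Under an unadjusted p of 0.05 were 2 members, Cdc20 and Rrm1, and 424 of all 2205 tested genes. By DESeq2 11.2% of all tested genes were called, and 55.1% of those were higher. Rrm1 was at 92.4, 40.7, 128, 81.4 and 62.8 CPM in S3-57 and 43.0 to 66.8 CPM in Control-57, with a log2 fold change of 0.56 ± 0.26 (adjusted p = 0.205). Between S3-57 and S1-57, edgeR called 0 of all 2205 genes, and 3 members (E2f2, Mcm7 and Rrm2) and 111 of all genes had an unadjusted p under 0.05.

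At 78 weeks the S1 livers had been off DCA for 68 weeks. Rrm1 rose, 1 of 43 members where 1.81% of all tested genes were called and 0.998% were called higher. It lay at 50.4 to 87.2 CPM (median 70.6) in S1-78 and at 30.03 to 50.8 CPM (median 33.5) in Control-78, which gave 0.87 ± 0.25 on the log2 scale (adjusted p = 0.0487). A single pair of values overlapped, 50.4 and 50.8 CPM. The value stayed between 0.80 and 0.96 when each liver was left out, but the call was lost in 8 of those 12 fits (adjusted p up to 0.104) and without the 4 libraries with pancreas transcripts (0.90). Of 43 members 32 were fitted higher, with a median of 0.69 against 0.07 over all genes. Summed stellate cell and fibroblast markers were higher in every S1-78 liver (154 to 1665 CPM) than in every Control-78 liver (64.1 to 153 CPM), and their part was not tested. In S2-78, edgeR called 0 of 43 members against 1.63% of all tested genes. An unadjusted p under 0.05 was found for 6 members and for 344 of all 2205 tested genes. DESeq2 called 2 members (Kif14 and Mcm6) and 4.40% of genes. Rrm1 was at 72.2, 35.04, 54.98 and 24.1 CPM in S2-78, overlapping the controls.

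S3-78 livers had been off DCA for 21 weeks. Rrm1, Ccnd1 and Kif5c rose, 3 of 43 members (6.98%), where 13.3% of all tested genes were called, 5.85% higher and 7.48% lower. With RLE factors 55.7% of the called genes were higher, in place of 43.9%. Rrm1 was at 112, 99.0, 56.2 and 90.6 CPM, all above the Control-78 maximum of 50.8 CPM, with a log2 fold change of 1.23 ± 0.27 (2.34-fold, adjusted p = 0.00190), and the call held without each liver. It was lost when all 78 libraries entered, including those the authors removed (0.77). Ccnd1 was at 43.9, 22.8, 390 and 35.03 CPM against 8.70 to 48.4 CPM (median 20.2), with 2.48 ± 0.60 (adjusted p = 0.00429). The increase rested on mouse 59 at 390 CPM, since without that liver it was 0.62 (adjusted p = 0.557). Kif5c, a motor of axonal transport rather than of mitosis, was at 27.6, 16.4, 256 and 7.62 CPM against 0 to 6.67 CPM, with 4.74 ± 1.49 (adjusted p = 0.0239). It was above all controls in all 4 livers, but without mouse 59 the log2 fold change was 2.58 (adjusted p = 0.288), and the call was also lost without control mouse 88 or 90. With the total count as a covariate Ccnd1 and Kif5c were lost and Rrm1 remained called (1.26), where the S3-78 libraries were all shallower than the controls. Summed erythroid markers (4 of 10 listed on the panel) were lower in every S3-78 liver (235 to 681 CPM) than in every Control-78 liver (898 to 1850 CPM), and their part was not tested.

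Direct-78 livers had received DCA for all 78 weeks. Ccna2, Ccnd1, Cdkn1b, E2f2, Kif14, Mcm6 and Rrm1 rose and Cdk6 fell, 8 of 43 members (18.6%), where 24.4% of all tested genes were called, 5.71% higher and 18.7% lower. Thus 7 of 43 members were called higher against a background of 5.71%, and the median log2 fold change was 0.41 for members and −0.33 over all genes. The scaling matters here, since with RLE factors the median over all genes was 0.07, that of members 0.84, and 46.3% of the called genes were higher in place of 23.4%, while the same 8 members were called. Hepatocyte markers were lower in every Direct-78 liver (18389 to 26034 CPM) than in every Control-78 liver (28391 to 48149 CPM), as were macrophage markers (319 to 559 against 570 to 2032 CPM), and pancreas markers were higher (35.1 to 67.2 against 5.43 to 26.7 CPM), and their part in these differences was not tested. Ccna2 was at 70.2, 29.7 and 132 CPM in Direct-78 and 9.05 to 28.3 CPM (median 16.7) in Control-78, with 2.10 ± 0.59 (adjusted p = 0.00839). Rrm1 was at 59.3, 68.8 and 82.4 CPM against at most 50.8 CPM (0.88 ± 0.30, adjusted p = 0.0280). The Rrm1 call was kept in 3 of 8 alternative settings. Among others it was lost with every gene that had a count, with all 78 libraries and with only the compared groups. Ccna2 and Rrm1 were higher in each of the 3 livers than in any control, as were Kif14 and Kif5c. That makes 4 of 43 members without overlap in the higher direction, against 5.03% of all tested genes, and none in the lower, against 13.9%.

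Mcm6 was at 6.92, 20.2 and 44.6 CPM against 1.31 to 7.51 CPM (2.80 ± 0.85, adjusted p = 0.0149). Cdkn1b was at 465, 633 and 758 CPM against 172 to 478 CPM (1.18 ± 0.38, adjusted p = 0.0221). The calls of Cdkn1b at 32 weeks were in the opposite direction, and the difference between these changes was not tested. Ccnd1 was at 93.9, 17.5 and 112 CPM against 8.70 to 48.4 CPM, so 1 of 3 livers lay among the controls (1.76 ± 0.64, adjusted p = 0.0389). E2f2, an activating E2F factor, was at 39.5, 13.5 and 71.6 CPM against 4.23 to 26.7 CPM (1.97 ± 0.70, adjusted p = 0.0336). Kif14 was at 6.92, 10.8 and 14.9 CPM against 0.329 to 3.32 CPM, from 7, 8 and 11 counts (2.88 ± 1.10, adjusted p = 0.0475). Cdk6, the other kinase partner of D-type cyclins, was at 7.91, 49.9 and 0 CPM against 48.9 to 132 CPM (−2.24 ± 0.69, adjusted p = 0.0159). Without mouse 66, a liver with a poor correlation to the mean profile, no member was called, and 2 livers were then left in the group. Without mouse 64, 3 were called (Ccna2, Cdkn1b and Mcm6), and without control mouse 90 there were 3 (Ccna2, Cdk6 and Mcm6). The calls of Kif14 and Ccnd1 were each lost in 7 of the 9 fits that left out a liver. Adding the total count as a covariate left no call, and Kif14 then turned to −1.91 (adjusted p = 0.563). Against S3-78, edgeR and DESeq2 called 0 of 43 members and 5.03% of all tested genes were called by edgeR (0.363% higher and 4.67% lower). By edgeR 1 member, Ccna2, and 469 of all 2205 tested genes were under an unadjusted p of 0.05.

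Between water controls of different age few members were called. Mcm6 was lower in Control-78 (1.31 to 7.51 CPM) than in Control-10 (97.9, 6.03, 24.1 and 2.15 CPM), by −3.25 ± 0.81 on the log2 scale (adjusted p = 0.0133), the only call among 43 where 3.95% of all tested genes were called (2.36% higher and 1.59% lower), and without mouse 68 it was lost at −1.65. The Mcm6 call was also lost with all 78 libraries, with only the compared groups and with the total count as a covariate. Ccnd1 and Rrm1 did not overlap between these ages, with Control-78 lower, and were not called (adjusted p = 0.107 and 0.0952), 2 of 43 members against 3.17% of all tested genes. Endothelial markers were lower in every liver of Control-57 (132 to 185 CPM) and Control-78 (133 to 157 CPM) than in every liver of Control-10 (212 to 333 CPM), and stellate cell and fibroblast markers were lower in every Control-78 liver (64.1 to 153 CPM) than in every Control-10 liver (196 to 451 CPM). Their part was not tested. Against Control-10, edgeR called 0 members in Control-32 and 1.59% of all tested genes. An unadjusted p under 0.05 was found there for 5 members and for 395 of all 2205 tested genes. In Control-57 edgeR called 0 members and 3.45% of all tested genes, with 3 members and 359 of all genes at an unadjusted p under 0.05. DESeq2 called 1 member and 7.21% of genes in Control-32, and 0 members and 7.03% in Control-57.

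The direct test of whether the change at 78 weeks differed from that at 10 weeks, as an interaction over 4 groups, passed an adjusted p of 0.05 for 12 of 43 members between Direct-78 and S1-10, against 33.8% of all tested genes. It passed for 6 of 43 between S1-78 and S1-10, against 4.22%. Both share Control-10, Control-78 and S1-10 livers. For the same S1 exposure, the difference was 5.14 ± 1.09 for Mcm6 (adjusted p = 0.00250), 3.11 ± 0.82 for Ccnd1 (adjusted p = 0.0157) and 1.31 ± 0.37 for Rrm1 (adjusted p = 0.0257). Without Control-10 mouse 68 none of the 6 passed, and without S1-78 mouse 31 only Mcm6 did. The Cdc20 difference (4.52) was lost without the 4 libraries with pancreas transcripts (4.74, adjusted p = 0.0562). Between Direct-78 and S1-10 none of the 12 passed with the total count as a covariate, and without the 2 poorly correlated livers E2f2 (1.98, adjusted p = 0.146) and Cdk6 (−1.50, adjusted p = 0.152) did not pass. The median of Ccnd1 was 67.3, 51.6, 38.7 and 20.2 CPM in controls of 10, 32, 57 and 78 weeks and 18.3, 13.1, 16.8 and 33.6 CPM in S1. Between S2-78 and S2-32 and between S3-78 and S3-57, edgeR called 0 members (5 and 2 at an unadjusted p under 0.05), against 0.499% and 0 of all tested genes. Of all 2205 tested genes, 405 and 162 had an unadjusted p under 0.05.

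Of the 43 tested members, 24 (55.8%) were called in no comparison and no difference of changes, against 38.3% of all tested genes, among them Mcm7, the deepest-read MCM subunit, and the D-type cyclins Ccnd2 and Ccnd3. Cdkn1a, the p53 target p21, was among them too, and ranged from 1.67 to 262 CPM within Control-78. In S1-10 against Control-10 Cdk4 differed by −0.08 ± 0.36 (249 to 363 CPM against 199 to 382 CPM).

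The levels of mitotic genes were spread unevenly over livers. In Control-57, mouse 82 had Cdc20 at 247 CPM, where the other 5 livers had 5.95 to 21.6 CPM. In S1-57, mouse 27 had Ccnb1 at 74.8 CPM, Top2a at 42.2 CPM and Ccna2 at 64.9 CPM, and it was the highest of its 6 livers for 27 of 43 members (62.8%), against 29.2% of all tested genes. In S1-78, mouse 31 had Cdc20 at 124 CPM, Top2a at 75.7 CPM and Kif5c at 464 CPM, and was the highest for 58.1% of members and for 487 of the 2205 tested genes. In S3-57 and S3-78, mice 54 and 59 had Cdc20 at 55.3 and 102 CPM, where the rest of their groups had at most 4.21 and 9.18 CPM. Such livers occurred in controls and treated groups alike, with Control-10, Control-32, Control-57 and Control-78 each holding a liver that was the highest for 48.8% to 55.8% of members (mice 68, 75, 82 and 86), and for 37.5%, 26.2%, 23.6% and 30.6% of all tested genes. Summed cholangiocyte markers (Krt7, Krt19 and Spp1, the 3 on the panel of 6 listed, none at 0 throughout a group) were the highest of their group in mice 27, 54, 31 and 59 (198, 320, 607 and 173 CPM), and lymphocyte markers were too (132, 161, 84.7 and 192 CPM). Some other livers that led their group for many members were not the highest for both lists, treated ones among them. In S2-78, mouse 44 was the highest for 39.5% of members and 26.3% of genes and had 51.6 CPM of cholangiocyte and 42.7 CPM of lymphocyte markers, where the highest of its group were 146 and 201 CPM. In S2-32, mouse 41 was the highest for 37.2% of members and 29.4% of genes and had 49.9 and 32.2 CPM, where the highest were 95.3 and 33.5 CPM. Of the controls, mouse 82 was below mouse 84 for both lists (54.3 against 148 CPM and 138 against 218 CPM), mice 68 and 86 had the lowest lymphocyte sums of their groups (35.99 and 27.53 CPM) and cholangiocyte sums of 58.99 and 25.03 CPM, and mouse 75 was the highest for lymphocyte markers (71.8 CPM) but not for cholangiocyte markers (43.4 CPM). The part of these cells in the members' levels was not tested.

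**Figure D4:**
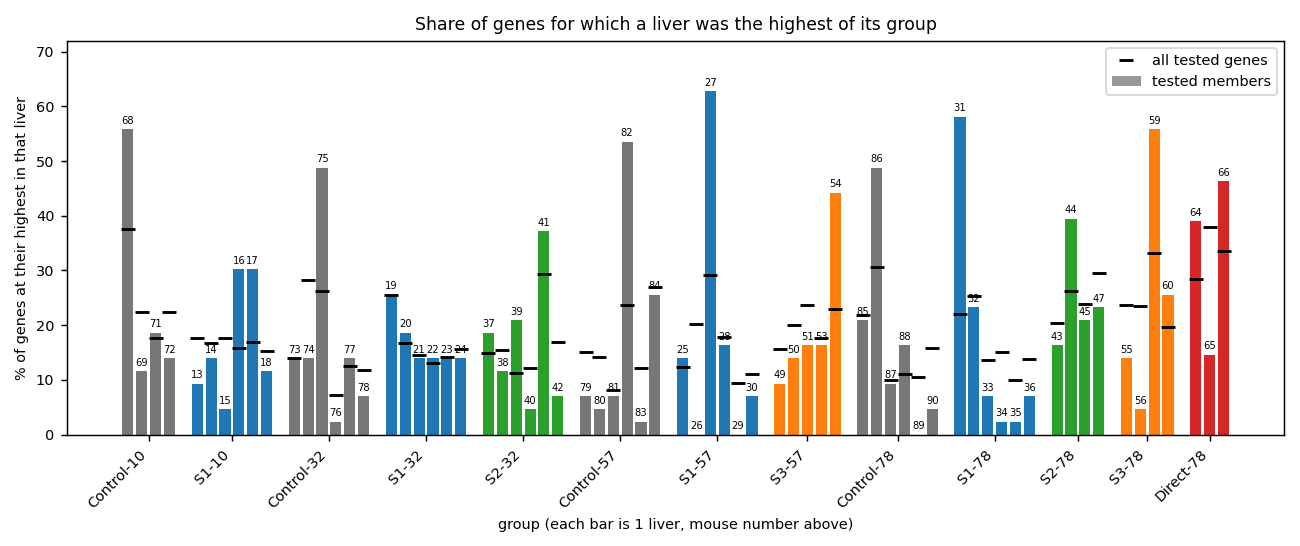
Share of the 43 tested members (bars) and of all tested genes (black ticks) for which a liver was the highest of its group, in percent, with the mouse number above each bar and bars coloured by exposure (grey Control, blue S1, green S2, orange S3, red Direct). In most groups 1 liver, such as mouse 27 in S1-57 at 62.8% against 29.2%, stands above its tick, while the 6 livers of S1-32 lie close to theirs.

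Other genes of the pathway were counted from 2 lists of known function. Of 35 tested genes for replication and mitosis outside the membership, 6 fell in S1-10 and none rose, against 4.40% of all tested genes called lower. Among them were the kinetochore genes Cenpe (−4.09 ± 1.17, adjusted p = 0.0275) and Nuf2 (−3.58 ± 0.98, adjusted p = 0.0240) and Gmnn, geminin, the brake on relicensing (−2.36 ± 0.75, adjusted p = 0.0491). In S1-32, 7 fell, including Mybl2 (−3.32 ± 0.96, adjusted p = 0.00864), and 2 rose, the cohesin and condensin subunits Smc3 and Smc4, where 17.2% of all tested genes were called lower and 11.9% higher. In S2-32 Smc3 and Smc4 rose and none fell, against 3.45% higher and 7.21% lower. The medians of the 35 were −0.61 in S1-10, −0.72 in S1-32 and 0.13 in S2-32, where those of all genes were −0.03, 0.05 and 0.05. In Direct-78, 6 rose, such as Hmgb2 (3.29 ± 0.73, adjusted p = 0.00144), and 3 fell, against 5.71% higher and 18.7% lower, and the median was 1.15 where that of all genes was −0.33. Those that fell in this shallowest group were Pole (−6.09 ± 2.18), Mcm10 (−6.60 ± 2.46) and Ect2 (−5.65 ± 2.17). Their SEs were above 2 and their counts are not given here, so the sizes of these folds cannot be read from the fits. Mcm4 and Kif23, which had no counts in Direct-78, were also fitted far lower there. With the total count as a covariate 0.499% of all tested genes were called in Direct-78 and 1.63% in S1-32. None of the 35 was called in S1-78 or S2-78. In S1-57, 1 rose (0.363% of all tested genes were called higher), and 2 rose and none fell in S3-57 (2.86% higher) and in S3-78 (5.85% higher).

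Of 28 tested genes of the p53, RB and checkpoint list, 1 fell in S1-10 (4.40% of all tested genes lower), 4 fell and 2 rose in S1-32 (17.2% lower and 11.9% higher), and 3 fell and 1 rose in S2-32 (7.21% lower and 3.45% higher). None was called in S1-57. At later collections 1 fell and 1 rose in S1-78 (0.816% lower and 0.998% higher), 1 fell in S2-78 (0.816% lower), 1 fell in S3-57 (3.54% lower), 2 fell and 1 rose in S3-78 (7.48% lower and 5.85% higher), and 3 fell and 1 rose in Direct-78 (18.7% lower and 5.71% higher). Mdm2, the ligase that degrades p53, fell in S1-10 (−2.03 ± 0.54), S1-32 (−1.91 ± 0.50) and S2-32 (−1.54 ± 0.50). Rb1, the retinoblastoma gene itself, fell in S1-32 (−2.05 ± 0.59, adjusted p = 0.00832) and S2-32 (−1.83 ± 0.58, adjusted p = 0.0332), and Trp53, the p53 gene, fell in both (−1.57 ± 0.36 and −1.17 ± 0.36). Gadd45a, a growth arrest gene, fell in S1-78, S2-78 and S3-78 (−2.05, −1.97 and −1.80), and Bbc3, the p53 target Puma, rose in S1-78 and S3-78 (2.05 and 2.72). The 78-week comparisons share the Control-78 livers, and those of S1-32 and S2-32 share the Control-32 livers. Skp1a, a subunit of SCF ubiquitin ligases, fell in S3-57, S3-78 and Direct-78 (−1.57, −1.52 and −1.02). Brca1 (−6.86 ± 2.22) and Rad9a (−5.82 ± 2.21), genes of the DNA damage response, also fell in Direct-78, the shallowest group. Their SEs were above 2 and their counts are not given here, so the sizes of these folds cannot be read from the fits. Bax, a promoter of apoptosis, rose in Direct-78 (1.24 ± 0.42).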

How the data were processed

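RNA of male B6C3F1 mouse liver sections was measured with the TempO-Seq mouse S1500+ panel, whose most abundant transcripts were attenuated alike in all samples. The authors aligned reads to the probed genes (the processing notes name Bowtie, mm10, Partek 10.0.22.0524 and DESeq2) and deposited whole-number counts per gene for 78 libraries. The authors also deposited normalized values (a signal unit, the counts scaled by the median-ratio method) for the 68 libraries they kept, and the same values after a filter that left 2205 genes. They removed 10 libraries by rank correlation with the average and the lowest 20% of genes by geometric mean. The main fit used the counts of the 68 kept libraries and the 2205 kept genes, and the scaled values served only for the choice of libraries and genes.

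Counts were fitted with edgeR 4.0.16 in R 4.3.3 (TMM factors, quasi-likelihood test, all 13 groups in 1 fit), with Benjamini-Hochberg adjustment over 2205 genes, an adjusted p of 0.05 and, except for differences of changes, a fold change beyond 1.5. The study's own tool, DESeq2 (1.42.0), was an alternative, as were RLE factors, no filter, all 78 libraries, only the compared groups, a depth covariate, and leaving out each liver. The fits were also tested on simulated data, and no result given here rests on those runs. Members were named where called in any comparison, together with Ccnd1, Cdkn1a, Cdk1, Cdk4, Mki67, Top2a, Pcna and Mcm2 whatever their result. Members named beyond that rule (such as E2f1, Rrm2, Mcm7 and those whose groups did not overlap) were chosen after their values were seen. Of 151 replicate pairs none agreed within sampling noise. Each library is a separate mouse, and depth per library was 541245 to 4285848 counts, so that 3 counts are the floor for a gene. Promoter sequences are RefSeq's on GRCm38.p6. The members and lists were chosen with earlier results of these data known.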

Additional observations from a re-analysis of the deposited data

Results flagged for a closer look

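In groups of 4 to 6 livers, 276 sets of values for the named genes were searched for a liver that stood apart from its group, and 23 (8.33%) were found, where chance gives about 1 in 20. Livers that stood above their groups were mouse 27 of S1-57 for Ccna2 (64.9 CPM) and Kif5c (193.6 CPM), mouse 68 of Control-10 for Ccnb1 (19.5 CPM) and Top2a (68.4 CPM), mouse 44 of S2-78 for Ccnb1 (61.8 CPM), mouse 82 of Control-57 for Cdc20 (246.7 CPM), mouse 54 of S3-57 for Cdc20 (55.3 CPM), mouse 86 of Control-78 for Cdc25b (20.02 CPM) and mouse 31 of S1-78 for Kif5c (464 CPM). In S2-32, mouse 39 was high for Mki67 (14.4 CPM) and mouse 41 for Pcna (17.1 CPM), and Pcna was also high in mouse 21 of S1-32 (1.74 CPM) and mouse 60 of S3-78 (6.09 CPM).

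Livers that stood below their groups were mouse 28 of S1-57 for Cdk19 (22.99 CPM) and Mcm2 (0 CPM), mouse 71 of Control-10 (199.3 CPM), mouse 23 of S1-32 (311 CPM) and mouse 32 of S1-78 (132 CPM) for Cdk4, and mouse 43 of S2-78 for Kif5c (0 CPM). Mcm2 was also low in mouse 14 of S1-10 (0.665 CPM), mouse 41 of S2-32 (3.94 CPM) and mouse 88 of Control-78 (0 CPM), and Top2a in mouse 42 of S2-32 (1.70 CPM).

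The change in Direct-78 against Control-78 differed from that in S1-10 against Control-10, by edgeR's interaction test, for 12 of 43 members, against 33.8% of all tested genes. On the log2 scale the difference was 3.29 for Ccna2, 3.61 for Ccnd1, 5.51 for Cdc20, 2.42 for Cdc45, 3.93 for Cdk1, −2.12 for Cdk6, 2.10 for Cdkn1b, 2.57 for E2f2, 5.40 for Kif14, 5.66 for Mcm6, 1.32 for Rrm1 and 4.77 for Top2a. Cdk1 turned to −3.50 without Direct-78 mouse 64 and did not pass in 10 of 19 fits that left out a liver, and Cdk6 did not pass in 15 of them (−1.47 without mouse 66). Without Control-10 mouse 68, Cdc20 (3.61, adjusted p = 0.0597) and Top2a did not pass. Top2a also failed without Direct-78 mouse 64 (adjusted p up to 0.224 over these fits), and E2f2 passed in 13 of the 19 fits. The change in S1-78 differed from that in S1-10 for 6 of 43 members, against 4.22% of all tested genes, by 2.46 for Ccna2, 3.11 for Ccnd1, 4.52 for Cdc20, 6.73 for Kif5c, 5.14 for Mcm6 and 1.31 for Rrm1. The Kif5c difference was 0.37 without S1-78 mouse 31 (adjusted p = 0.953). Both sets share the Control-10, Control-78 and S1-10 livers, and without Control-10 mouse 68 none of the 6 passed.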

How the results depend on the processing

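Over the alternatives and the fits that left out a liver, 860 of 1088 values for 50 named calls kept their direction and their call, 226 kept only the direction and 2 reversed. Kif14 in Direct-78 was −1.91 with the total count as a covariate, and the Cdk1 difference between Direct-78 and S1-10 was −3.50 without Direct-78 replicate 64 and at most 4.76 without any other liver (replicate 65). The cause was not tested.

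The number of members called, of 43, moved as follows, each with the share of all tested genes called in brackets, and the cause was not tested. With all 78 libraries it was 7 in S1-10 (10.7%), 7 in S1-32 (13.9%), 0 in S1-78 (0.771%), 18 in Direct-78 (33.6%), 1 between S2-32 and S1-32 (0.544%), 24 for the difference between Direct-78 and S1-10 (44.3%) and 2 for that between S2-78 and S2-32 (4.63%). With DESeq2 it was 5 in S1-10 (11.1%), 3 in S1-78 (3.85%), 2 in S2-78 (4.40%), 1 in Control-32 against Control-10 (7.21%), 3 in Control-78 against Control-10 (7.48%) and 7 between S2-32 and S1-32 (6.67%). With the total count as a covariate it was 1 in S1-10 (3.27%), 0 in S1-32 (1.63%), 1 in S3-78 (5.31%), 0 in Direct-78 (0.499%), 0 in Control-78 against Control-10 (3.95%), 0 for the difference between Direct-78 and S1-10 (0.499%) and 3 for that between S1-78 and S1-10 (1.68%). With only the compared groups it was 0 in S1-78 (0%), 5 in Direct-78 (14.1%), 0 in Control-78 against Control-10 (1.77%) and 15 between S2-32 and S1-32 (20.2%). With every gene that had a count it was 0 in S1-78 (1.78%), and with RLE factors it was 2 in Control-78 against Control-10 (4.04%) and 1 for the difference between S2-78 and S2-32 (2.31%). Without the 2 libraries of low correlation it was 6 in S1-32 (17.8%) and 0 in Direct-78 (11.5%), and without the 4 with pancreas transcripts 0 in S1-78 (1.04%). These last 2 settings and all alternatives for the differences were chosen after seeing the data.

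When each liver was left out, the number called ranged from 0 to 3 in S1-10, 6 to 14 in S1-32, 0 to 2 in S1-78, 2 to 4 in S2-32, 0 to 1 in S3-57, 1 to 3 in S3-78, 0 to 11 in Direct-78, 0 to 3 in Control-32 against Control-10, 0 to 1 in Control-78 against Control-10 and 0 to 2 in Direct-78 against S3-78. It was 3 throughout between S2-32 and S1-32, and 8 to 16, 0 to 8 and 0 to 3 for the differences of Direct-78 from S1-10, S1-78 from S1-10 and S2-78 from S2-32. It stayed at 0 in S1-57, S2-78, Control-57, S3-57 against S1-57 and the difference of S3-78 from S3-57. RLE factors moved the median over all genes by 0.40 in Direct-78, and the share of called genes that were higher from 22.9% to 39.3% in S1-57, 50% to 72.1% in S2-78, 44.7% to 57.3% in S3-57, 69.7% to 53.9% in Control-57 and 59.8% to 42.7% in Control-78 against Control-10, and from 7.21% to 18.9% between Direct-78 and S3-78. Mcm4 and Kif23 had 0 counts in all 3 Direct-78 libraries, the shallowest group, where depth and group cannot be told apart. No paired analysis was possible because each mouse number occurs in only 1 group.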
